A study of Mus musculus with 8 samples.

Results

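The subunits of the oxidative phosphorylation machinery were followed across RNA-seq libraries of fibroblasts at an early stage of reprogramming. Genes were chosen by symbol, as those named for a numbered subunit of NADH dehydrogenase (*Nduf*), for succinate dehydrogenase (*Sdh*), for the cytochrome bc1 complex (*Uqcr*), for cytochrome c oxidase (*Cox*, families 4 to 8) or for ATP synthase (*Atp5*), together with the protein-coding genes of the mitochondrial DNA (*mt-*). This gave 90 of the 18990 genes in the deposited table. By symbol, 37 belong to complex I, 4 to complex II, 8 to complex III, 14 to complex IV and 16 to complex V, and 11 are mitochondria-encoded. The mitochondrial genes *mt-Nd3* and *mt-Nd4l* were not among the genes analysed. The symbols are not a perfect guide to the complexes: NDUFA4 is known as a subunit of complex IV, COX7A2L as a factor of supercomplexes, and ATP5S as a coupling factor.

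The respiratory chain passes electrons from NADH (complex I) and succinate (complex II) through complex III to oxygen at complex IV, and the proton gradient built on the way drives ATP synthase, complex V. A few core subunits are encoded in the mitochondrial DNA and transcribed inside the organelle, while most subunits, including those of complex II as a whole, are nuclear genes whose products are imported. Fibroblasts respire through this chain, and pluripotent cells are known for a more glycolytic metabolism.

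Mouse embryonic fibroblasts (MEFs) from wild-type BL6 animals carried a doxycycline-inducible OSKM cassette, which drives *Oct4*, *Sox2*, *Klf4* and *c-Myc*, and the transactivator rtTA, both from lentivirus. They were transfected with 40 nM of an siRNA pool against *Ncor1* (*siNcor1*), a corepressor subunit, or against *Oct4* (*siOct4*), and collected at day 3 or day 6 of reprogramming. The 4 groups are *siNcor1* at day 3, *siOct4* at day 3, *siNcor1* at day 6 and *siOct4* at day 6, with 2 libraries each, described as biological replicates. All groups carried the cassette and received doxycycline. Libraries with a non-targeting siRNA were not analysed here, so each value compares the 2 knockdowns with each other or the 2 days within a knockdown.

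The libraries held between 7735742 and 16445192 reads on genes, and *siOct4* day 3 replicate 2 was the shallowest. Between 1.50% and 2.85% of these reads fell on the 90 subunits. *Gm26917*, a single non-coding gene, took between 15.5% and 29.1%. *Ncor1* was lower in *siNcor1* at day 3 (7.08 and 7.20 log2-cpm, against 7.82 and 7.94 in *siOct4*), and at day 6 the groups overlapped. *Pou5f1*, which encodes OCT4, was not lower in libraries with the *siOct4* label: at day 3 it was at 7.53 and 7.62 log2-cpm, against 7.63 and 7.68 in *siNcor1*, and at day 6 it was higher, at 9.45 and 8.97 against 7.55 and 7.32. The other genes of the cassette were higher there too, with log2 fold changes of 1.63 for *Sox2*, 1.67 for *Klf4* and 1.59 for *Myc* (limma, adjusted p = 3.3e-04, 2.6e-04 and 2.0e-04). The study describes the silencing of *Oct4* by this siRNA as early and transient, at a time before the libraries analysed here, because the cassette overexpresses the gene. Groups are called by their labels throughout. The 9 fibroblast markers, among them *Col1a1* and *Vim*, were present in every library (summed level between 3685 and 15560 CPM), and 4 markers of red blood cells were not among the genes analysed.

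Promoter sequence is shown for 4 nuclear subunits that moved in opposite directions with day, picked after their values were seen: *Ndufc2* and *Uqcr10*, called higher in both knockdowns, and *Ndufa10* and *Sdha*, the 2 called lower in both. Each line gives the 250 bases before the RefSeq start site (GRCm38.p6), 5′ to 3′ on the gene's strand, with matches to the core motif of NRF1, a nuclear activator of respiratory genes, in capitals. The windows are chr7:97399753-97400002 (plus strand) for *Ndufc2*, chr11:4704345-4704594 (minus) for *Uqcr10*, chr1:92473759-92474008 (minus) for *Ndufa10* and chr13:74350241-74350490 (minus) for *Sdha*.
Ndufc2: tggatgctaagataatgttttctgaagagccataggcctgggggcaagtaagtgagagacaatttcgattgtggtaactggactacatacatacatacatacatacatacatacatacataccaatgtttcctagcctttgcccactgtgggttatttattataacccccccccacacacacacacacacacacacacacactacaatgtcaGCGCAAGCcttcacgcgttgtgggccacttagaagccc
Uqcr10: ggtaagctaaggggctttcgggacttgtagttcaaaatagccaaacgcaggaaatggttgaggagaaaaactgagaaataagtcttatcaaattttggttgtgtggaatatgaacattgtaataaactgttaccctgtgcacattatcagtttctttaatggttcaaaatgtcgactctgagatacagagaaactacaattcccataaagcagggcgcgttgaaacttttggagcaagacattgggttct
Ndufa10: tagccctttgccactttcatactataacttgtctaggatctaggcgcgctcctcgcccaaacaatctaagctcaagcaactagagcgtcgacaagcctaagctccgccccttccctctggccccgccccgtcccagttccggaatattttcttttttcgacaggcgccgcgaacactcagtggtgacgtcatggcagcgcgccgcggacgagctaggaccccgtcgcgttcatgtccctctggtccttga
Sdha: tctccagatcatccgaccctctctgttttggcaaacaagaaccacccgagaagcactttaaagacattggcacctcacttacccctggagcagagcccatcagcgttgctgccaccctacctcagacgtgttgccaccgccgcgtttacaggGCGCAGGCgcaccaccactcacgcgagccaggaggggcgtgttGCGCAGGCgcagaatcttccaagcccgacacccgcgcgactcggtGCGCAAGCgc

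The NRF1 letters searched were GCGCANGC and, on the other strand, GCNTGCGC. *Ndufc2* held 1 match and *Sdha* 3, while *Uqcr10* and *Ndufa10* held none. These genes are few and were picked by their direction of change, so they cannot show whether matches go with it. That was not tested. Promoters were found for 64 of the 79 nuclear subunits, and 28.1% of them held a match in these 250 bases, against 18.9% of 10121 tested genes with a promoter in the same table. The letters CCGGAAGT (or ACTTCCGG), bound by ETS factors such as GABPA, were in 4.69% of the subunits and 6.64% of the tested genes. The letters AANATGGC (or GCCATNTT), the core of the YY1 motif, were in 9.38% and 5.13%. Of the 46 subunits with a promoter that were called higher at day 6 in *siOct4*, 12 held the NRF1 letters, and of the other 18, 6 did. A match is a description of the sequence and not a binding site.

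Per kilobase of the principal transcript, the nuclear subunits covered a wide range of levels. *Atp5b*, the catalytic beta subunit of ATP synthase, stood highest among them at 9.36 on the log2 scale of mean CPM per kilobase over the 8 libraries, and the median subunit was at 6.10 in complex I, 6.11 in complex II, 7.13 in complex III, 7.41 in complex IV and 7.22 in complex V. Of the paralogues, *Cox4i2* was low at 0.33 and *Ndufa4l2* at 1.06. Among the mitochondria-encoded genes, *mt-Co1*, the catalytic subunit of complex IV, reached 11.67. Of the 90 subunits, 85 had a mean of at least 1 CPM and were tested, namely 78 nuclear and 7 mitochondria-encoded genes. *Cox4i2*, *mt-Co2*, *mt-Atp8*, *mt-Atp6* and *mt-Co3* were not tested.

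At day 3 the knockdowns were not told apart at any subunit. By limma with Benjamini-Hochberg adjustment over 13866 genes, 0 of 85 subunits were called higher and 0 lower (adjusted p under 0.05) in the libraries labelled *siOct4*, where 0.375% of all tested genes were called higher and 0.692% lower. At an unadjusted p under 0.05, 0 subunits were higher (5.29% of all genes) and 1 was lower (5.24% of all genes), and limma-voom on the recovered reads also called 0. The single subunit was *Cox6b2*, a paralogue of the complex IV subunit *Cox6b1*, with 4.62 and 4.21 log2-cpm in *siNcor1* and 4.24 and 3.72 in *siOct4*. Its groups overlapped (log2 fold change −0.44 ± 0.19 SE, adjusted p = 0.44). The median log2 fold change over the subunits was −0.07, against −0.02 over all genes, and it was −0.21 without *siOct4* day 3 replicate 1 and 0.05 without *siOct4* day 3 replicate 2. In this group 80 of the 85 subunits were higher in replicate 1 than in replicate 2.

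From day 3 to day 6 in *siNcor1*, 32 of the 78 nuclear subunits rose, 5 fell and 41 did not pass the test. Of all 85 subunits, 35 were called higher and 5 lower (all tested genes: 13.8% higher and 20.9% lower), with a median log2 fold change of 0.42 against −0.07 over all genes. The largest rises were those of *Cox7a1*, *Atp5j2*, *Cox7b*, *Ndufa2* and *mt-Nd6*, with log2 fold changes of 1.39, 1.14, 1.04, 1.04 and 1.02. *Cox7a1*, the heart and muscle form of a complex IV subunit, had between 6 and 29 reads in a library. It reached the 1 CPM minimum only through its level at day 6, as did *Ndufa4l2*, so their rises are no independent result. Without these 2 genes the counts were 34 higher and 5 lower of 83.

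*Atp5j2*, a small membrane subunit of ATP synthase, went from 6.59 and 6.71 log2-cpm at day 3 to 7.97 and 7.61 at day 6 in *siNcor1*. In *siOct4* it went from 6.79 and 6.48 to 8.29 and 8.34. The days did not overlap in either knockdown, and the log2 fold changes were 1.14 ± 0.15 and 1.68 ± 0.15 (SE, limma, adjusted p = 2.3e-04 and 4.7e-06). The complex IV subunit *Cox7b* behaved alike in *siNcor1*, from 6.65 and 6.75 to 7.83 and 7.65.

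The 5 subunits that fell in *siNcor1* were *Ndufa10*, *Sdha*, *Sdhb*, *Atp5a1* and *Atp5g3*. *Sdha*, the flavoprotein that oxidises succinate, was at 7.59 and 7.67 log2-cpm at day 3 and at 7.17 and 7.11 at day 6. *Ndufa10*, an accessory subunit of complex I, went from 7.16 and 7.23 to 6.66 and 6.50. *Atp5a1*, the alpha subunit that pairs with ATP5B in the catalytic head, went from 9.68 and 9.79 to 9.21 and 9.04. Subunits called between 2 groups never had overlapping libraries: for all 5 genes both libraries of day 6 lay below both of day 3. Their log2 fold changes lay between −0.61 and −0.39 (adjusted p between 0.0018 and 0.040), and *Ndufa10* was the one whose call held when each of the 8 libraries was left out in turn. The count was 1 without *siNcor1* day 3 replicate 2 or *siNcor1* day 6 replicate 2, 3 without *siNcor1* day 3 replicate 1, and 9 without either library of *siOct4* at day 6.

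In *siOct4* the rise from day 3 to day 6 took in more subunits: 59 of 85 were called higher and 2 lower (all tested genes: 22.2% and 30.5%), with a median log2 fold change of 0.74 against −0.08 over all genes. The 35 subunits called higher in *siNcor1* were all among the 59. The 2 called lower, *Ndufa10* (−0.30 ± 0.11) and *Sdha* (−0.71 ± 0.12), were also lower in *siNcor1*; *Ndufa10* lost its call in each of the 8 fits without 1 library. Of the 59 calls, 43 held when each of the 8 libraries was left out in turn, and of the 35 in *siNcor1*, 14 did. The count of 35 was 20 without *siNcor1* day 3 replicate 2 and 18 without *siNcor1* day 6 replicate 1. Without *Cox7a1* and *Ndufa4l2*, 57 of 83 were called higher. *Ndufa4l2*, which was tested only because of its level at day 6, had the largest log2 fold change, 3.11, and *Ndufc2*, *Uqcr10*, *mt-Nd6* and *Atp5j2* followed with 1.86, 1.84, 1.70 and 1.68. The 2 day comparisons share no library, but all 4 groups were fitted together and share the estimate of spread. Their calls are therefore not independent.

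**Figure D1:**
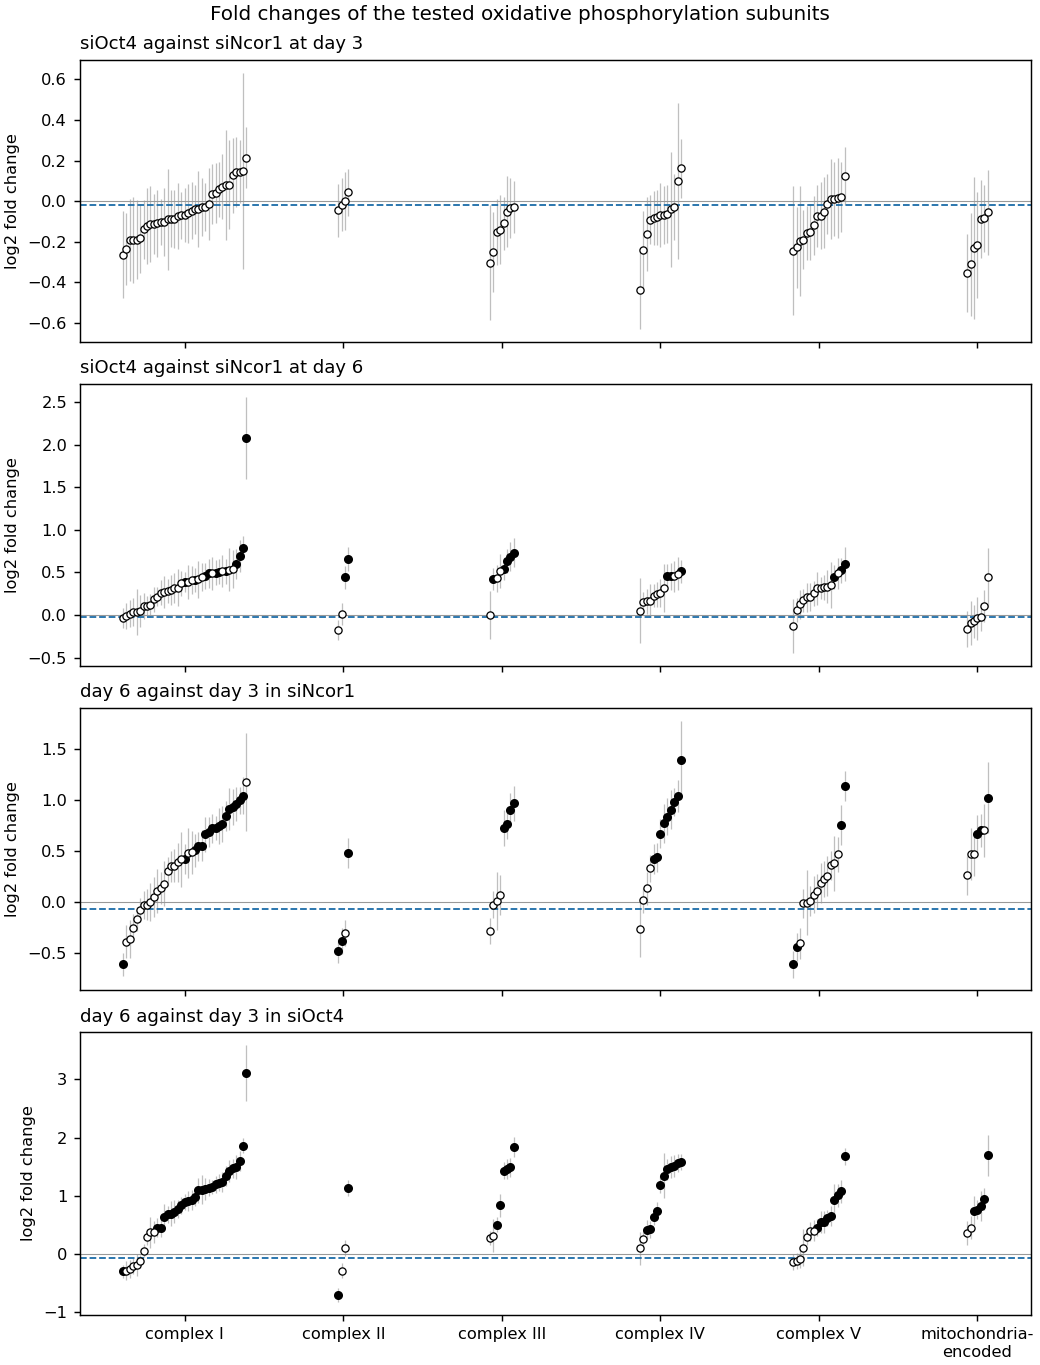
Log2 fold change (y axis, points with SE bars) of each of the 85 tested subunits, grouped by complex along the x axis and sorted within it, in 4 comparisons with separate y scales. Filled points passed an adjusted p of 0.05 and the dashed line is the median of all 13866 tested genes; no point is filled at day 3, 24 are filled at day 6, and 40 and 61 in the day comparisons.

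Complex I, the NADH dehydrogenase, is the complex with the most members. In *siNcor1* 16 of its 37 subunits rose and 1 fell with day (all tested genes: 13.8% and 20.9%). In *siOct4* 27 rose and 1 fell (all tested genes: 22.2% and 30.5%). The 27 include *Ndufa4l2*, which was tested only through its level at day 6. *Ndufc2*, a small membrane subunit, stood at 5.63 and 5.78 log2-cpm in *siNcor1* at day 3, 5.77 and 5.50 in *siOct4* at day 3, 6.81 and 6.60 in *siNcor1* at day 6 and 7.50 and 7.49 in *siOct4* at day 6. At day 3 the knockdowns overlapped and at day 6 they did not. The nuclear core subunits of complex I named here did not move as one. *Ndufv2* and *Ndufs8* were called higher with day in both knockdowns (0.54 and 0.42 in *siNcor1*, 1.20 and 0.98 in *siOct4*). *Ndufs7* was called higher in *siOct4* only (0.45, adjusted p = 0.029, against 0.14 in *siNcor1*, adjusted p = 0.52). *Ndufs1*, *Ndufs3* and *Ndufv1* were called in neither, with log2 fold changes between −0.39 and −0.03 in *siNcor1* and between −0.29 and 0.29 in *siOct4*.

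In complex II the 4 subunits diverged. *Sdhd*, a membrane anchor, rose with day in both knockdowns, from 6.66 and 6.92 log2-cpm to 7.32 and 7.21 in *siNcor1* and from 6.94 and 6.63 to 7.81 and 8.03 in *siOct4*. *Sdha* fell in both. *Sdhb*, the iron-sulphur subunit, fell in *siNcor1* (−0.39 ± 0.13, adjusted p = 0.040) and was at 0.10 ± 0.13 in *siOct4* (adjusted p = 0.54). The other anchor, *Sdhc*, was at −0.31 and −0.29 without passing the test (adjusted p = 0.084 in both).

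In complex III 4 of 8 subunits rose with day in *siNcor1* and 6 in *siOct4*, with none called lower. Of all tested genes 13.8% and 22.2% were called higher, and 20.9% and 30.5% lower. *Uqcr10*, a small accessory subunit, went from 6.33 and 6.19 log2-cpm to 7.45 and 7.00 in *siNcor1*, and from 6.35 and 5.89 to 7.98 and 7.94 in *siOct4*. The days did not overlap in either knockdown. *Uqcrfs1*, the Rieske iron-sulphur protein, rose in *siOct4* (0.50 ± 0.13, adjusted p = 0.0070) and was at −0.03 in *siNcor1*. *Uqcrb*, which binds ubiquinone, was at 4.49 in one library of *siOct4* at day 6 and at 5.65 in the other, and was called in no comparison.

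Complex IV had the largest share of rising members, 9 of 13 in *siNcor1* and 11 of 13 in *siOct4*, with none called lower. Of all tested genes 13.8% and 22.2% were called higher, and 20.9% and 30.5% lower. Both counts of complex IV include *Cox7a1*, which was tested only through its level at day 6. *Cox7c*, a small accessory subunit, went from 5.66 and 5.73 log2-cpm to 6.75 and 6.60 in *siNcor1*, and from 5.66 and 5.56 to 7.01 and 7.36 in *siOct4*. *Cox5a* and *Cox4i1* were the members called in neither knockdown. *Cox4i1*, the ubiquitous form of the regulatory subunit 4, stayed between 7.93 and 8.30 log2-cpm in all 8 libraries. Its paralogue *Cox4i2* had between 4 and 22 reads in a library.

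Among the other paralogues, *Cox6b1* and *Cox6b2* both rose with day, by 0.44 and 0.91 in *siNcor1* and by 0.74 and 1.51 in *siOct4*. *Cox6a1* rose by 0.42 in each. *Cox7a2* rose by 0.84 and 1.45. *Cox7a2l* was at 0.33 in *siNcor1* (adjusted p = 0.075) and rose by 0.64 in *siOct4*. *Cox8a*, the ubiquitous form of subunit 8, rose by 0.67 and 1.19. In *siNcor1* the genes *Atp5g1*, *Atp5g2* and *Atp5g3*, which encode the same mature ring subunit c, were at 0.25 (adjusted p = 0.35), at 0.76 (adjusted p = 0.012) and at −0.45 (adjusted p = 0.026), so *Atp5g2* rose and *Atp5g3* fell. In *siOct4* *Atp5g1* and *Atp5g2* were called higher, and *Atp5g3* was not called (−0.12, adjusted p = 0.48).

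Complex V had the smallest share of rises among the complexes with more than 4 members: 2 of 16 in *siNcor1*, where 2 fell, and 9 of 16 in *siOct4*, where 0 fell. In *siNcor1* the 12.5% called higher is near the 13.8% of all tested genes, and 12.5% were called lower against 20.9%. In *siOct4* 56.25% were called higher, against 22.2% of all tested genes, of which 30.5% were called lower. *Atp5b* was at 10.41 and 10.49 log2-cpm in *siNcor1* at day 3, 10.44 and 10.31 in *siOct4* at day 3, 10.12 and 9.96 in *siNcor1* at day 6 and 10.20 and 10.39 in *siOct4* at day 6. It was called in no comparison. Summed over its 16 genes, complex V took 3553 ± 88.2 CPM (SD, n = 2) in *siNcor1* at day 3 and 3105 ± 320 at day 6, while complex IV took 1338 ± 36.7 and 1908 ± 188. In *siOct4* the sums went from 3334 ± 322 to 3857 ± 283 in complex V and from 1274 ± 152 to 2430 ± 260 in complex IV.

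**Figure D2:**
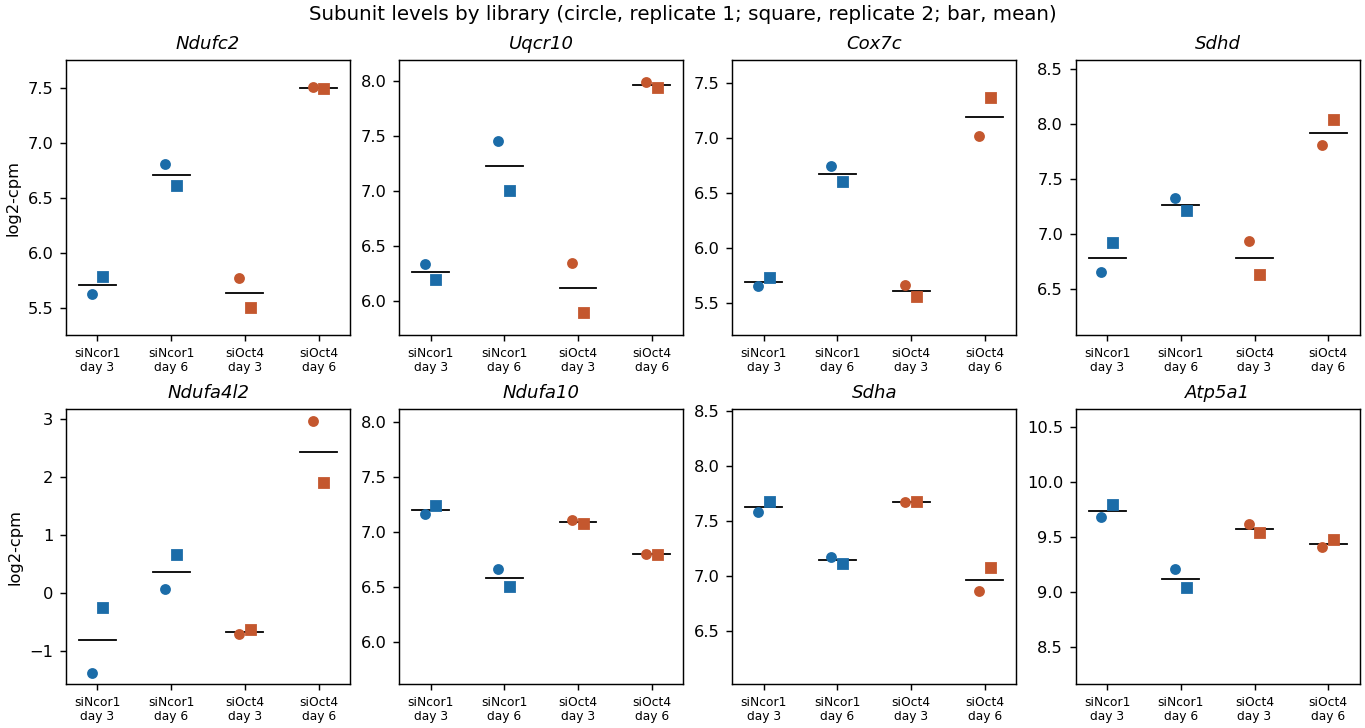
Deposited log2-cpm (y axis, each panel with its own range) of 8 subunits in every library, by knockdown and day along the x axis, with the group mean as a bar. *Ndufc2*, *Uqcr10*, *Cox7c* and *Sdhd* are higher at day 6 in both knockdowns and highest in *siOct4*, while *Ndufa10* and *Sdha* are lower at day 6 in both and *Atp5a1* is lowest in *siNcor1* at day 6.

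Fold changes were also set beside transcript length. The principal transcripts (APPRIS, GENCODE M21) of the 78 tested nuclear subunits have a median length of 850 bases. All 12531 tested protein-coding genes with a known length shifted by length with day: in *siOct4* their median log2 fold change was 0.78 under 1000 bases (743 genes), 0.24 from 1000 to 2000 bases, −0.12 from 2000 to 4000 bases and −0.47 over 4000 bases. The 49 nuclear subunits under 1000 bases had a median of 0.98, and 77.6% of them were called higher, against 61.9% of all genes of that length. The 22 subunits of 1000 to 2000 bases were at 0.63 with 68.2% called higher, against 35.6% of all such genes, and the 7 subunits over 2000 bases were at −0.29.

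In *siNcor1* the corresponding medians were 0.51 for subunits and 0.45 for all genes under 1000 bases, and 0.05 and 0.13 from 1000 to 2000 bases. There 55.1% of the short subunits were called higher, against 39.0% of all short genes. From 1000 to 2000 bases 22.7% of the subunits were called higher, near the 19.1% of all such genes. Of the genes that fell in *siNcor1*, *Ndufa10*, *Sdha* and *Atp5a1* have transcripts over 2000 bases, *Sdhb* one of 1142 bases and *Atp5g3* one of 719 bases. Over the 78 nuclear subunits, which share libraries and depth, the Spearman correlation between length and log2 fold change was −0.53 in *siNcor1* and −0.41 in *siOct4*. The part of transcript length in the rise of the subunits was not tested.

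**Figure D3:**
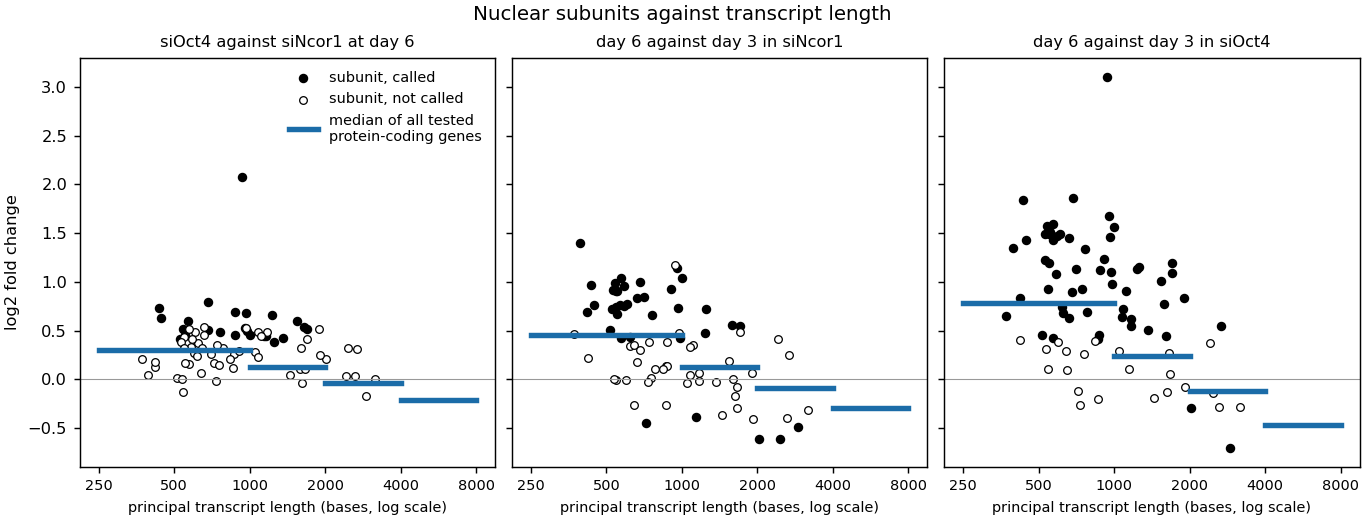
Log2 fold change (y axis) of the 78 tested nuclear subunits against the length of the principal transcript (x axis, log scale) in 3 comparisons, with filled points for subunits past an adjusted p of 0.05. Horizontal bars give the median of all tested protein-coding genes in 4 length classes, and in *siOct4* they step down from 0.78 to −0.47, with the short subunits lying around and above the first bar.

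At day 6 a set of the subunits was higher with the *siOct4* label than with *siNcor1*. Of 85, 24 were called higher (12.1% of all tested genes) and 0 lower (18.6% of all), with a median log2 fold change of 0.32 against −0.03 over all genes, and 76 of 85 had a positive value. At an unadjusted p under 0.05, 0 subunits were lower, where 24.5% of all genes were, and limma-voom on the recovered reads called 14 higher and 0 lower. The calls were 11 of 37 in complex I, 2 of 4 in complex II, 5 of 8 in complex III, 3 of 13 in complex IV, 3 of 16 in complex V and 0 of 7 among the mitochondria-encoded genes. The count of complex I includes *Ndufa4l2*, which was tested only through its level in *siOct4* at day 6. For each of the 24 both libraries of *siOct4* lay above both of *siNcor1*. No subunit called between 2 groups had overlapping libraries in any comparison, so this comes with the calls and is no further support. The share of all tested genes without overlap was not counted.

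The count leaned on single libraries. Without *siNcor1* day 6 replicate 2 it fell to 2, and *Ndufc2* was the subunit called in all 19 alternatives (log2 fold change 0.79 ± 0.13 SE, adjusted p = 0.0016, between 0.69 and 0.89 over the alternatives). In *siNcor1* at day 6, 70 of 85 subunits were higher in replicate 1 than in replicate 2. In *siOct4* at day 6, 19 of 85 subunits differed by more than 0.5 log2-cpm between the replicates, as did 21.3% of all tested genes. The median fold change stayed positive without any 1 library, between 0.18 and 0.44.

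*Ndufa4l2*, a paralogue of *Ndufa4* known as a hypoxia-induced gene, was scarce, at 0.06 and 0.65 log2-cpm (11 and 17 reads) in *siNcor1* at day 6 and at 2.97 and 1.89 (73 and 42 reads) in *siOct4* at day 6. At day 3 it had between 4 and 12 reads in a library. The groups of day 6 did not overlap, and the log2 fold change was 2.08 ± 0.48. The gene reached the minimum of 1 CPM only through its level in *siOct4* at day 6, so its difference is given as a description, and without it 23 of 84 subunits were called higher. *Ndufa4* itself was at 7.76 and 7.42 in *siNcor1* and at 7.77 and 8.19 in *siOct4* (0.39 ± 0.20, adjusted p = 0.17).

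After *Ndufc2*, the largest differences of the other subunits were those of *Uqcr10* (0.73 ± 0.17), *Ndufa5* (0.69 ± 0.19) and *Uqcrq* (0.69 ± 0.17), with adjusted p between 0.0087 and 0.017. *Sdhd* led complex II with 0.66 ± 0.14, *Atp5s* complex V with 0.60 ± 0.20 and *Cox7c* complex IV with 0.51 ± 0.14. Of the core enzymes, *Sdhb* (0.44), *Ndufs7* (0.46), *Ndufs8* (0.50), *Ndufv2* (0.51) and *Uqcrfs1* (0.42) were called. *Ndufs1*, *Ndufs3*, *Ndufv1*, *Sdha*, *Atp5a1* and *Atp5b* were not, with values between −0.18 and 0.32. Of the 24 subunits, 15 were also called higher with day in both knockdowns and 7 in *siOct4* alone. The comparison at day 6 shares its libraries of day 6 with the day comparisons, so this overlap is partly built in. With day in *siOct4*, 59 of all 85 subunits were called higher.

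By transcript length, all tested genes under 1000 bases had a median of 0.30 and short subunits one of 0.35, and 30.6% of these subunits were called higher against 23.1% of all such genes. From 1000 to 2000 bases the values were 0.13 for all genes and 0.43 for 22 subunits, of which 40.9% were called higher against 18.1% of all such genes. The 7 longer subunits had a median of 0.04 and 0 were called, where 12.1% of all genes of 2000 to 4000 bases were called higher. Fibroblast markers moved the other way at day 6: 8 of 9 were called lower in *siOct4*, where 18.6% of all tested genes were. Their summed level was between 3685 and 3694 CPM against 6432 and 6732 in *siNcor1*. Of the 5 epithelial markers 4 were called lower. In bulk RNA, fewer cells of a type and less RNA per cell cannot be told apart. The part of these markers and of the cassette genes in the difference was not tested.

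The difference between the knockdowns changed from day 3 to day 6 for 9 of the 85 subunits, each towards higher levels in *siOct4*. That is 10.6%, near the 7.77% of all tested genes. For 0 subunits it changed towards lower levels, against 12.9% of all tested genes. At an unadjusted p under 0.05 no subunit, 0 of 85, changed towards lower levels, where 19.9% of all genes did, and limma-voom called 4 and 0. The 9 were *Uqcr10*, *Uqcr11* and *Uqcrc1* of complex III, *Ndufc2*, *Ndufs6* and *Ndufv2* of complex I, *Sdhd*, *Cox7c* and *Atp5c1*. *Uqcrc1*, a core protein of complex III, was at 7.85 and 7.90 log2-cpm in *siNcor1* and 7.92 and 7.76 in *siOct4* at day 3, and at 7.71 and 7.45 against 8.17 and 8.06 at day 6. It was called with day in neither knockdown (−0.29 and 0.27). Of the 9 calls, 0 held when each library was left out in turn: the count was 0 without *siNcor1* day 3 replicate 2, *siOct4* day 3 replicate 2 or *siNcor1* day 6 replicate 2, and 3 without *siNcor1* day 3 replicate 1, while it was 19 without *siOct4* day 6 replicate 1.

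Of the 7 tested mitochondria-encoded genes, 3 were called higher with day in *siNcor1* and 5 in *siOct4* (13.8% and 22.2% of all tested genes), and 0 were called between the knockdowns at day 6. As a share of all reads on genes they took 1.02% ± 0.15 (SD, n = 2) in *siNcor1* at day 3, 0.860% ± 0.138 in *siOct4* at day 3, 1.54% ± 0.20 in *siNcor1* at day 6 and 1.42% ± 0.31 in *siOct4* at day 6. The libraries of day 6 lay above those of day 3 in both knockdowns, with an exact permutation p of 0.333, two-sided, the smallest that 2 against 2 libraries can give. Between the knockdowns the libraries overlapped at both days (exact permutation p = 0.667 at each). The genes called higher in *siNcor1* were *mt-Nd1*, *mt-Nd2* and *mt-Nd6*, and in *siOct4* these and *mt-Co1* and *mt-Cytb*, while *mt-Nd4* and *mt-Nd5* were called in neither.

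*mt-Nd1* went from 10.71 and 10.36 log2-cpm to 11.16 and 11.24 in *siNcor1* and from 10.34 and 10.03 to 10.97 and 11.29 in *siOct4*. *mt-Nd6* had the largest change, 1.02 ± 0.35 and 1.70 ± 0.35, and the widest spread, at 9.19 and 8.14 in *siOct4* at day 6. It is the one coding gene on the other strand of the mitochondrial DNA. Whether reads were counted by strand is not given in the sources used here, so reads of *mt-Nd6* and of transcripts antisense to it cannot be told apart. *mt-Co1* and *mt-Cytb* were at 12.25 and 12.87 and at 10.99 and 11.56 in *siOct4* at day 6, and at 12.52 and 12.79 and at 11.16 and 11.47 in *siNcor1*, so the knockdowns overlapped.

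A block of adjacent mitochondria-encoded genes was almost without reads. *mt-Co2* had between 0 and 14 reads in a library, *mt-Atp8* between 0 and 6, *mt-Atp6* between 0 and 7 and *mt-Co3* between 0 and 6, 95 reads in all over the 8 libraries. Their neighbours *mt-Co1* on one side and *mt-Nd4*, the next gene analysed on the other, never fell below 9.27 log2-cpm. Of the 43-base words in these genes, 100% in *mt-Co2*, 99.5% in *mt-Atp6* and 99.9% in *mt-Co3* also occur in annotated pseudogenes of chromosome 1 or another annotated gene, against 0.617% in *mt-Atp8*. In *mt-Co1* and *mt-Nd4*, which had many reads, the share was 55.1% and 62.4%. The pseudogenes *Gm28661*, *Gm10925* and *Gm28437* had at most 21 reads in a library. The values of these 4 genes are therefore not read as expression levels, and the sums over mitochondria-encoded genes hold almost none of their reads. The part of shared sequence in the missing reads was not tested.

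**Figure D4:**
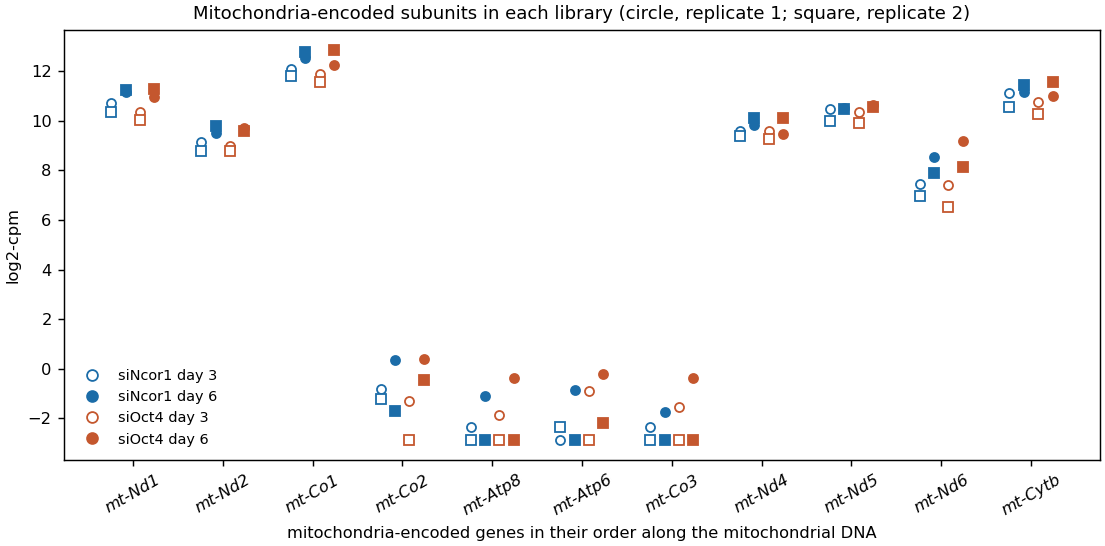
Deposited log2-cpm (y axis) of the 11 mitochondria-encoded genes in each library, in their order along the mitochondrial DNA (x axis). The 7 tested genes lie between 6.52 and 12.87, with day 6 (filled) mostly above day 3 (open), while *mt-Co2*, *mt-Atp8*, *mt-Atp6* and *mt-Co3* lie at or below 0.38.

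Other genes of the respiratory apparatus were taken as lists, to be read beside the 12.1% of all tested genes called higher and the 18.6% called lower at day 6. Of 6 subunits and carriers that the symbols leave out, 2 were called higher at day 6 in *siOct4* against *siNcor1*, the electron carrier *Cycs* and *Cyc1* of complex III (0.64 each). Of 46 assembly factors 13 were called higher, led by *Coa6* (1.12 ± 0.19, adjusted p = 0.0016), and 0 lower. Of 77 mitochondrial ribosomal proteins 29 were higher and 0 lower, led by *Mrpl12* (1.02), and of 22 import proteins 12 were higher and 0 lower, led by *Tomm5* (1.09). Of 23 genes that express the mitochondrial DNA 6 were higher and 0 lower. Of 17 genes of the TCA cycle 1 was higher and 1 lower. The medians were 0.42, 0.29, 0.45, 0.47, 0.29 and 0.19 in this order, beside −0.03 over all tested genes. *Lrpprc* is counted in 2 of these lists.

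With day, 9 of the 17 genes of the TCA cycle were called lower in *siNcor1* and 0 higher, with a median of −0.35. That is 52.9% lower, against 20.9% of all tested genes. In *siOct4* 5 were lower and 2 higher, and the 29.4% lower is about the 30.5% of all genes. The mitochondrial ribosome had 13 higher and 6 lower in *siNcor1* and 41 and 1 in *siOct4*, and the assembly factors 7 and 7, and 17 and 6. All tested genes were called higher in 13.8% and 22.2% and lower in 20.9% and 30.5%, so the 15.2% of assembly factors called higher in *siNcor1* is near that background. *Lrpprc*, which stabilises mitochondrial mRNAs, was among the genes that fell in both knockdowns (−0.95 and −0.60), where 3 and 5 of the 7 mitochondria-encoded genes rose.

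Of the regulators, *Esrra*, a nuclear receptor that activates respiratory genes, was at 6.20 and 5.97 log2-cpm in *siNcor1* and at 6.96 and 6.86 in *siOct4* at day 6 (0.83 ± 0.13, adjusted p = 0.0011). *Ppargc1b*, a coactivator of ESRRA and NRF1, was at 3.78 and 3.32 against 4.81 and 4.26 (0.99 ± 0.22, adjusted p = 0.0063). Neither gene's groups overlapped. *Esrrb*, a related receptor of pluripotent cells, differed the other way (−2.09 ± 0.46, adjusted p = 0.0059). *Nrf1* and *Tfam* were at 0.24 and 0.36 without passing the test (adjusted p = 0.16 and 0.079), and *Ppargc1a* lay below the minimum level. Of the 11 regulators tested, 3 were higher and 3 lower (27.3% each), beside 12.1% and 18.6% of all tested genes.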

How the data were processed

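RNA-seq libraries of total RNA after ribosomal RNA depletion were aligned by the authors to mm10 with STAR 2.5.2b, and the authors deposited log2-cpm values computed with edgeR 3.20.9. The tool that counted reads is not given in the sources used here. On the linear scale, the values less a constant (0.136 CPM) were whole multiples of 1 read within 0.1 read for 100% of values, which gave the reads per library (7735742 to 16445192). At these depths 3 reads are worth 0.174 to 0.380 CPM.

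The 13866 genes whose mean reached 1 CPM were fitted with limma 3.58.1 in R 4.3.3 (lmFit, eBayes with a variance trend) on the deposited log2 values, all 4 groups together, with Benjamini-Hochberg adjustment at 0.05. The method was tested on simulated data, with reads drawn independently for each gene and library. Shifts shared by many genes of a library were not simulated, so that test does not cover them. Positions, transcript lengths and shared 43-base words came from GENCODE M21 (GRCm38), to which all 90 subunits matched by Ensembl ID. With 2 libraries a group, p-values measure the spread between these libraries. Read numbers bear on counting error alone.

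Subunits named are the 5 largest called changes in each direction per comparison, the largest difference at day 6 per complex, paralogue sets, core enzymes (1 is not reported here), all mitochondria-encoded genes and all not tested; *Sdhc*, *Uqcrb*, *Uqcrc1*, *Cox5a* and *Atp5c1* were added after their values were seen. The members and lists were chosen with earlier results of these data known. Alternatives were another scaling, filter, pseudocount or spread, a replicate block, and leaving out each library; limma-voom was added after seeing the data.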

Additional observations from a re-analysis of the deposited data

Results flagged for a closer look

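For 9 subunits the difference between the knockdowns at day 6 was not the difference at day 3, by the interaction term of limma across all tested genes. These are 10.6% of the 85 tested subunits, near the 7.77% of all tested genes called in that direction. The change was 0.87 on the log2 scale for *Uqcr10* (adjusted p = 0.027), 0.86 for *Ndufc2* (adjusted p = 0.0090), 0.83 for *Ndufs6* (adjusted p = 0.035), 0.67 for *Uqcr11* (adjusted p = 0.040), 0.66 for *Sdhd* (adjusted p = 0.041), 0.65 for *Ndufv2* (adjusted p = 0.043), 0.63 for *Atp5c1* (adjusted p = 0.046), 0.59 for *Cox7c* (adjusted p = 0.047) and 0.56 for *Uqcrc1* (adjusted p = 0.045). Under the alternatives *Ndufc2* was called in 15 of 18, with adjusted p up to 0.058, and *Uqcr10* in 13 of 18, with adjusted p up to 0.13. These calls need every one of *siNcor1* day 3 replicate 2, *siOct4* day 3 replicate 2 (the shallowest library) and *siNcor1* day 6 replicate 2: without any 1 of them 0 subunits were called.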

How the results depend on the processing

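At day 3, 0 subunits were called under all 19 alternatives. At day 6, the 24 subunits higher in *siOct4* became 7 without the variance trend, 12 when only the groups compared were fitted, 14 with limma-voom and between 2 and 26 without 1 library. Without *siOct4* day 6 replicate 2, 1 was called lower. In *siNcor1* the 35 higher with day became 18 to 44 and the 5 lower 1 to 9 without 1 library (20 without *siNcor1* day 3 replicate 2, 18 without *siNcor1* day 6 replicate 1). The 5 lower became 3 without the variance trend, 3 with totals without mitochondria-encoded genes and *Gm26917*, and 9 when only the groups compared were fitted. In *siOct4* the 59 higher stayed between 43 and 68, and the 2 lower became 1 without the trend, with median centring, quantile normalization, the other totals, no filter or only the groups compared, and 1 to 4 without 1 library (4 without *siOct4* day 6 replicate 2, otherwise 1). Quantile normalization moved the median change there from 0.74 to 0.91. The other totals moved the median of all genes from −0.08 to 0.07.

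The 9 changes of the knockdown difference became 2 without the trend, 17 with median centring, 19 with quantile normalization, 22 with the other totals, 3 with no filter, 4 with limma-voom and 0 to 19 without 1 library, and their median went from 0.39 to between 0.25 and 0.57. Whether the replicate numbers pair the libraries is not settled. Deviations from the group mean correlated between −0.040 and 0.281 across pairs of groups, and the highest value was that of the 2 knockdowns at day 6. A block for the replicate number gave 21 called changes of the difference and 33 subunits called higher at day 6. Leaving *Gm26917* out of the total moved the rise of the mitochondria-encoded share from 0.518 to 0.725 points in *siNcor1* and from 0.560 to 0.902 in *siOct4*. The cause of these shifts was not tested. Of 87 calls on single named subunits 36 held under every alternative run, and 0 reversed.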
